A study of Mus musculus with 12 samples.

Results

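Expression of 36 cell proliferation genes was described in the 12 RNA-seq libraries of the study, which hold 22276 gene symbols. The 36 genes were chosen by symbol as genes of DNA replication and mitosis, and all 36 had a value in every library. The mice were male C57BL/6J, 17 weeks old when the organs were taken. Their diet from 8 weeks of age was normal chow (NCD) or high in fat (HFD). From 10 weeks they were gavaged once a week with vehicle (veh) or with narciclasine (ncls) at 1 mg/kg. White fat (WAT), brown fat (BAT), liver and quadriceps muscle were taken from 3 groups, chow with vehicle (NCD-veh), high-fat diet with vehicle (HFD-veh) and high-fat diet with narciclasine (HFD-ncls). Each organ of each group was sequenced as 1 library, so no group within an organ has a replicate, and treated mice on chow are not analysed here. The number of mice behind a library and the depot that WAT was taken from are not given in the sources used here.

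A cell that divides copies its DNA in S phase and separates the copies in mitosis, and it makes most of the RNAs described here only while it does so. Resting cells keep these genes low through RB-family proteins, E2F factors and the DREAM complex, so the RNAs serve as a readout of how much division goes on in a tissue. In adult metabolic organs most parenchymal cells do not divide. In WAT, overfeeding is known to bring on division of adipocyte precursors and of resident macrophages. Narciclasine is a plant alkaloid known for slowing the division of tumour cells, and the question asked of these data was whether the proliferation genes differed between organs, with diet and with narciclasine.

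FPKM scales the fragments of a gene by transcript length and by the mapped fragments of the library, so levels of different genes can be set side by side. From the size of 1 fragment at low values, each library held about 18700000 to 26200000 fragments. At that depth the 36 genes were covered by a median of 51.6 fragments in NCD-veh WAT, 152 in HFD-veh WAT and only 6.41 to 10.3 in muscle. Between 17 and 21 of the 36 genes had fewer than 10 fragments in a muscle library, 8 to 12 in liver or BAT, except HFD-veh BAT with 2, and at most 1 in WAT. Values under about 0.1 FPKM therefore rest on few fragments. All 36 genes had a mean of at least 0.1 FPKM over the 12 libraries, and 27 of at least 0.5. The organ labels went with their markers: Adipoq, an adipocyte hormone, lay between 1600 and 2850 FPKM in WAT, Ucp1, the uncoupling protein of brown fat, between 740 and 770 in BAT, Ttr, a liver secretory protein, between 3990 and 4310 in liver, and Ckm, the creatine kinase of muscle, between 15700 and 16500 in muscle. Some libraries held RNA of another organ. In BAT, Ckm went from 248 FPKM (NCD-veh) to 120 (HFD-veh) and 17.7 (HFD-ncls). Ttr reached 27 FPKM in muscle of HFD-veh and 10.5 in WAT of HFD-ncls, and Ckm reached 10.3 in liver of HFD-veh. Over the 7 testis and epididymis markers, 6 were listed at 0 in all 3 WAT libraries.

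The promoters of these genes are described first, because genes that rise together in dividing cells are known to share short elements. The cell cycle genes homology region (CHR) and the CCAAT box are elements of genes used in mitosis, and the E2F site is an element of genes used for replication. RefSeq windows of 250 bases before to 50 after the start (build GRCm38.p6) were used for 29 of the 36 genes, and not for Foxm1, Kif20a, Ccne2, Ccna2, Mcm4, Tpx2 and Aurkb. On either strand, a CHR (TTTGAA or TTTAAA) was found in the windows of 21 genes (72.4%), against 30.6% of all 27025 genes with a window. A CCAAT letter run was found in 23 (79.3%), against 41.1%. An E2F site (TTTCCCGC, TTTGGCGC, TTTCGCGC or TTTGCCGC, where the forms can overlap on opposite strands) was found in 7 (24.1%), against 2.6%. The CHR and the E2F site differed by role. Of the 8 replication licensing genes with a window, 6 held an E2F site and 2 a CHR, and of the 21 genes with other roles, 1 held an E2F site and 19 a CHR, while the CCAAT run was in 6 of the 8 and 17 of the 21. These are matches of letters, not shown to be bound.

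The 130 bases before the start are printed for 6 genes, 5 with mitotic roles and, for contrast, the replication gene Mcm6, with CHR, E2F and CCAAT matches of either strand in capitals. They lie at chr7:135716380-135716509 (Mki67, minus strand), chr11:99024190-99024319 (Top2a, minus), chr10:69352913-69353042 (Cdk1, minus), chr7:122159305-122159434 (Plk1, plus), chr19:37376252-37376381 (Kif11, plus) and chr1:128359706-128359835 (Mcm6, minus).
Mki67: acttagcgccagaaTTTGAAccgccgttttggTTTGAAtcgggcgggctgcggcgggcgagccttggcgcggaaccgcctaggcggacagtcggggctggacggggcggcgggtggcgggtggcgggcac
Top2a: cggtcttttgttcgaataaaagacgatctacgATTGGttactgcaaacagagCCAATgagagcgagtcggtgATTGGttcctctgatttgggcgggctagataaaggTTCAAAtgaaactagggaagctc
Cdk1: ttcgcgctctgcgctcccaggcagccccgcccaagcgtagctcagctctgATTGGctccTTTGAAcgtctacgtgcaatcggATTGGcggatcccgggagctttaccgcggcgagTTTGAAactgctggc
Plk1: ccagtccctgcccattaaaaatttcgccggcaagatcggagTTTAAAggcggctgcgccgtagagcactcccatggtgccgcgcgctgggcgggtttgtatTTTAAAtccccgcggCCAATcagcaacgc
Kif11: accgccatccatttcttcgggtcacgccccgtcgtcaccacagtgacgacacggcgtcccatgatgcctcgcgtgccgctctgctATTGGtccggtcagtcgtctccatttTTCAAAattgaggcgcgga
Mcm6: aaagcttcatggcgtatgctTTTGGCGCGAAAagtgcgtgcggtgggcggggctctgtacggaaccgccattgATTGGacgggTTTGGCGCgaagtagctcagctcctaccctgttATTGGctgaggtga
Counted from the start, Top2a, Cdk1, Plk1 and Kif11 hold a CHR at -23, -15, -29 and -19, Mki67 holds its pair of CHR runs farther out at -116 and -98, and Mcm6 holds E2F letters at -110, -106 and -47 and no CHR.

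The proliferation genes were highest in WAT. Their median level in WAT was 0.918 FPKM with NCD-veh, 2.53 with HFD-veh and 3.22 with HFD-ncls. The medians were 0.265, 0.424 and 0.281 in BAT, 0.267, 0.313 and 0.382 in liver and 0.0861, 0.123 and 0.142 in muscle, in the same order of groups. The medians of all genes tested were also higher in WAT, at 5.46, 5.57 and 5.89 FPKM, against 1.95 to 2.54 in the other organs. Part of the higher level in WAT is thus shared by genes in general. The mean over an organ's 3 libraries was highest in WAT for 32 genes, in muscle for Ccne2 and Aurka, in BAT for Cenpa and in liver for Tk1, and it was lowest in muscle for 28. A level of 1 FPKM was reached in some library by 33 genes and in no library outside WAT by 22 genes. The shares of all genes doing so were not counted. In 24 of the 36 genes all 3 WAT libraries stood above the 9 others, where 45% of all 15131 genes tested did the same.

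**Figure D1:**
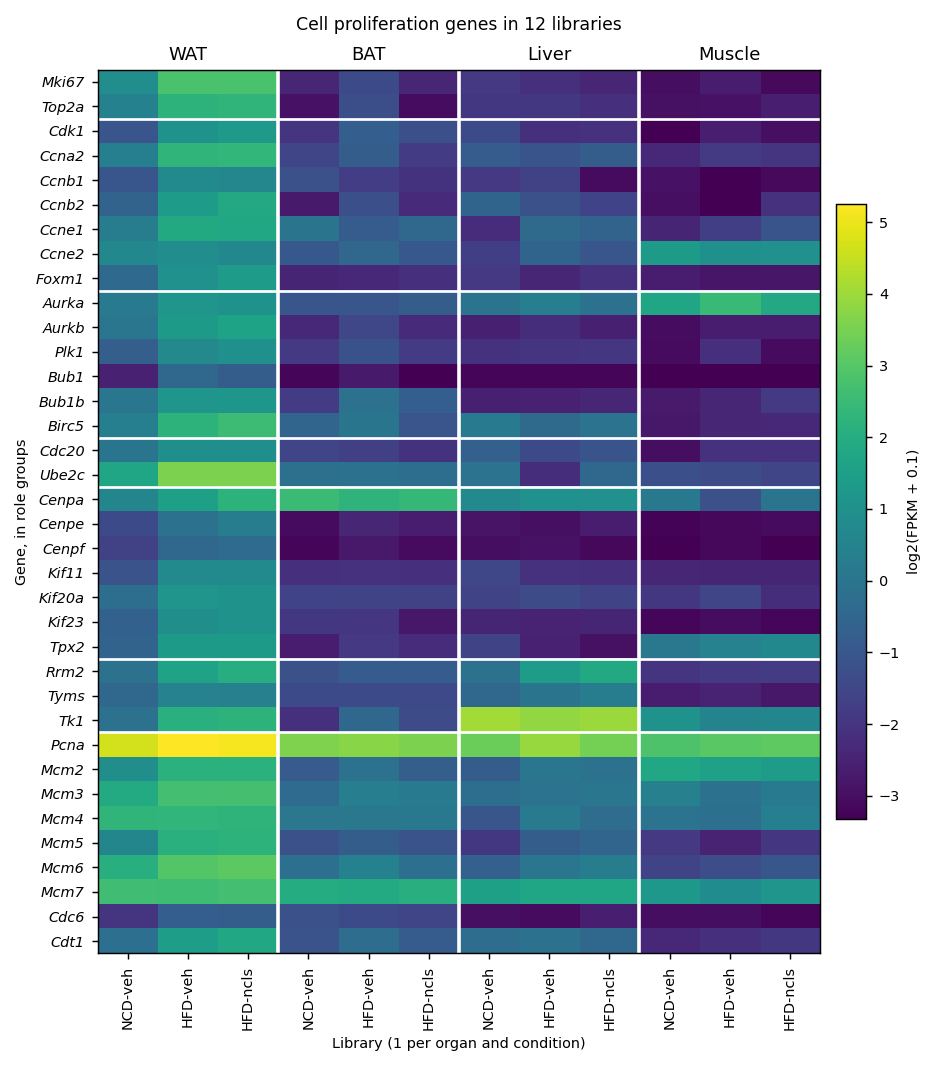
Level of each of the 36 genes, as log2(FPKM + 0.1), in the 12 libraries, with genes in rows by role and libraries in columns by organ. The 2 HFD columns of WAT are the brightest block, Tk1 is bright in liver, Aurka, Ccne2 and Mcm2 in muscle, Cenpa in BAT, and Pcna in all 12 libraries.

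In WAT, 26 of the 36 genes were more than 2-fold higher in HFD-veh than in NCD-veh and none was more than 2-fold lower. Here and below, 2-fold is read on log2(FPKM + 0.1), where it is a difference of 1, so a few genes with a ratio of FPKM just over 2 lie inside it. Over all genes tested, 6.19% were that much higher and 4.59% that much lower. The median ratio of FPKM was 3.04, the median log2 difference of (FPKM + 0.1) was 1.43 against 0.02 for all genes, and single differences ran from -0.03 (Mcm7) to 2.27 (Tk1). The summed level of the 36 genes went from 72.1 to 152 FPKM. With 1 library per group, these are differences between libraries and have no replicate check. Adding 1 in place of 0.1 FPKM left 13 genes over 2-fold, and with a mean of at least 0.5 FPKM 17 of the 27 genes kept were over it. In the sentences that follow, the 3 values of an organ are in the order NCD-veh, HFD-veh, HFD-ncls. By the rule used, 32 genes are given with all 12 values and the other 4 (Tyms, Mcm3, Mcm6 and Cdc6) by their range.

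**Figure D2:**
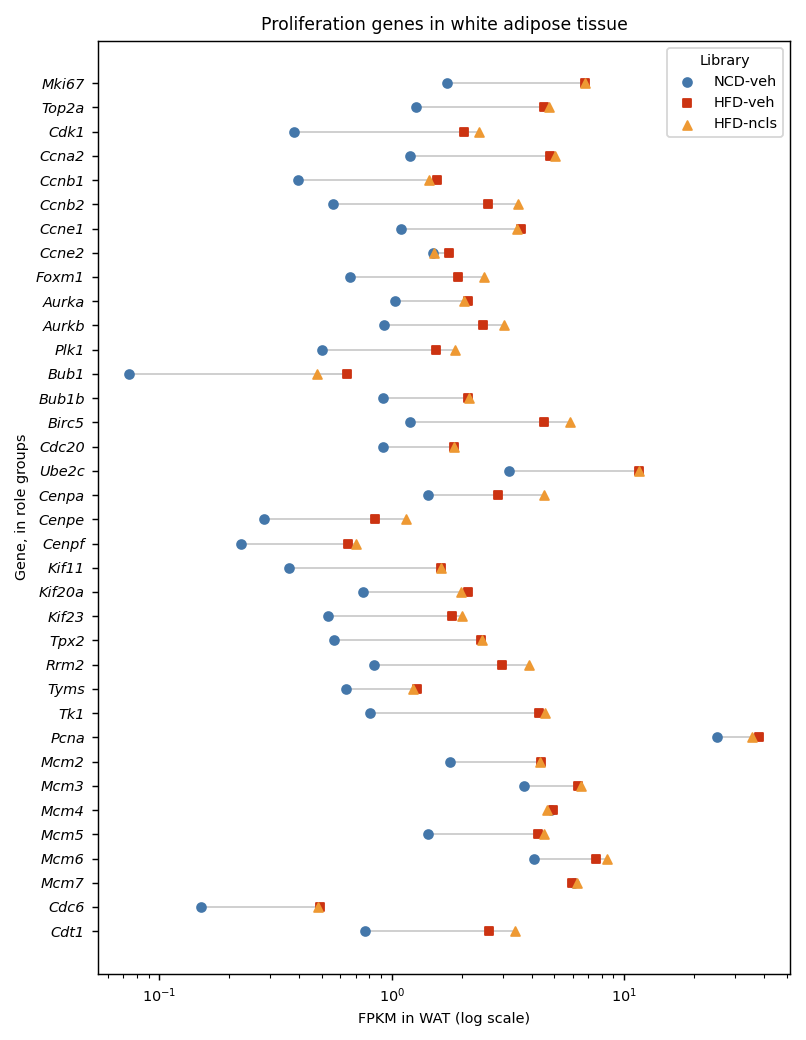
FPKM of each gene in the 3 WAT libraries on a log axis, with 1 point per library and a line over their range. The NCD-veh point lies to the left of HFD-veh in 35 rows, in 26 of them by more than 2-fold of FPKM + 0.1, the HFD-veh and HFD-ncls points lie together in most rows, and the 3 points coincide or nearly so for Ccne2, Mcm4 and Mcm7.

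Mki67 and Top2a are the standard markers of cycling cells. Mki67 (mm9, chromosome 7, 142881471 to 142908062), whose protein coats mitotic chromosomes, was 1.73, 6.77 and 6.82 FPKM in WAT, 0.0905, 0.28 and 0.091 in BAT, 0.168, 0.122 and 0.0892 in liver and 0.0242, 0.0621 and 0.0162 in muscle. Top2a (chromosome 11, 98854257 to 98885503), the topoisomerase that untangles sister DNA, was 1.27, 4.53 and 4.76 FPKM in WAT, 0.035, 0.314 and 0.0219 in BAT, 0.164, 0.163 and 0.125 in liver and 0.0293, 0.0349 and 0.0639 in muscle. The ratios of HFD-veh to NCD-veh in WAT were 3.91 and 3.58, and every WAT library stood above every other library. Outside WAT the highest value of both was that of HFD-veh BAT.

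Among the cyclins, CDK1 and FOXM1, 6 of 7 were more than 2-fold higher in HFD-veh than in NCD-veh WAT, with a median log2 difference of 1.75. Cdk1 (chromosome 10, 68799383 to 68815686), the kinase that starts mitosis, was 0.379, 2.04 and 2.38 FPKM in WAT, 0.145, 0.496 and 0.331 in BAT, 0.279, 0.123 and 0.133 in liver and 0, 0.0659 and 0.0268 in muscle. Ccna2, a cyclin of S and G2 phase, was 1.2, 4.79 and 5.02 FPKM in WAT, 0.247, 0.477 and 0.178 in BAT, 0.458, 0.368 and 0.482 in liver and 0.0944, 0.175 and 0.148 in muscle. HFD WAT held the highest values of both, and NCD-veh WAT was within the range of the other organs for Cdk1 but not for Ccna2. The mitotic cyclin Ccnb1 was 0.394, 1.56 and 1.45 FPKM in WAT, 0.332, 0.191 and 0.139 in BAT, 0.166, 0.212 and 0.0185 in liver and 0.0348, 0 and 0.0169 in muscle. Its relative Ccnb2 was 0.557, 2.59 and 3.48 FPKM in WAT, 0.0524, 0.329 and 0.11 in BAT, 0.584, 0.336 and 0.234 in liver and 0.0275, 0 and 0.133 in muscle. The factor Foxm1, which drives late cell cycle genes, was 0.663, 1.92 and 2.49 FPKM in WAT, 0.0842, 0.0968 and 0.123 in BAT, 0.169, 0.0882 and 0.132 in liver and 0.0619, 0.0421 and 0.0428 in muscle. For Ccnb1 and Foxm1 each WAT library exceeded the 9 others, and for Ccnb2 the NCD-veh WAT value lay just under that of NCD-veh liver. The E cyclins, which open S phase, differed from each other. Ccne1 was 1.1, 3.6 and 3.45 FPKM in WAT, 0.88, 0.46 and 0.628 in BAT, 0.111, 0.675 and 0.558 in liver and 0.084, 0.2 and 0.366 in muscle. Ccne2 was 1.5, 1.76 and 1.52 FPKM in WAT, 0.417, 0.612 and 0.415 in BAT, 0.203, 0.584 and 0.393 in liver and 2.46, 1.88 and 1.94 in muscle. The ratio of HFD-veh to NCD-veh in WAT was 3.27 for Ccne1 and 1.17 for Ccne2, which had its 3 highest values in muscle.

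Of the 6 mitotic kinases and checkpoint genes, 5 were more than 2-fold higher in HFD-veh than in NCD-veh WAT (median log2 difference 1.39). Birc5, which encodes survivin of the chromosomal passenger complex, was 1.2, 4.51 and 5.83 FPKM in WAT, 0.593, 0.905 and 0.382 in BAT, 1.06, 0.689 and 0.864 in liver and 0.0478, 0.0911 and 0.0926 in muscle. Aurkb, the kinase of that complex, was 0.924, 2.47 and 3.05 FPKM in WAT, 0.1, 0.251 and 0.105 in BAT, 0.0668, 0.116 and 0.0669 in liver and 0.021, 0.0599 and 0.0609 in muscle. Plk1 (chromosome 7, 129302951 to 129313389), the polo kinase, was 0.504, 1.55 and 1.88 FPKM in WAT, 0.175, 0.348 and 0.183 in BAT, 0.137, 0.143 and 0.157 in liver and 0.0184, 0.123 and 0.0178 in muscle. In these 3 genes all WAT libraries were above all others. The checkpoint kinase Bub1 was 0.0742, 0.643 and 0.479 FPKM in WAT, 0.00848, 0.0532 and 0 in BAT, 0.00945, 0.00987 and 0.00947 in liver and 0, 0 and 0 in muscle. Its relative Bub1b was 0.922, 2.13 and 2.16 FPKM in WAT, 0.182, 0.814 and 0.497 in BAT, 0.0676, 0.0706 and 0.0903 in liver and 0.0531, 0.091 and 0.175 in muscle. Bub1 had the largest ratio of FPKM in WAT (8.67), but its NCD-veh WAT value came from about 5.3 fragments, and it was listed at 0 in all 3 muscle libraries. The centrosome kinase Aurka, the 6th gene of the group, was 1.03, 2.14 and 2.04 FPKM in WAT, 0.391, 0.387 and 0.474 in BAT, 0.873, 1.17 and 0.828 in liver and 3.18, 5.52 and 3.47 in muscle. Its WAT log2 difference was 0.99, just inside 2-fold, and its muscle values were above all 9 others.

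The 2 genes of the anaphase-promoting complex, which tags mitotic proteins for destruction, were both higher in HFD-veh WAT. Ube2c, its E2 enzyme, was 3.19, 11.6 and 11.6 FPKM in WAT, 0.79, 0.813 and 0.764 in BAT, 0.872, 0.117 and 0.646 in liver and 0.324, 0.289 and 0.245 in muscle. Cdc20, its activator, was 0.914, 1.85 and 1.85 FPKM in WAT, 0.244, 0.209 and 0.139 in BAT, 0.519, 0.284 and 0.371 in liver and 0.0233, 0.133 and 0.135 in muscle. After Pcna, Ube2c was the highest of the 36 genes in HFD-veh WAT, and its lowest value of all was that of HFD-veh liver. The log2 difference of Cdc20 in WAT was 0.94, just inside 2-fold.

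In the centromere and spindle group, 6 of 7 genes were more than 2-fold higher in HFD-veh than in NCD-veh WAT (median log2 difference 1.39). The spindle motor Kif11 (chromosome 19, 37450893 to 37496349) was 0.361, 1.63 and 1.63 FPKM in WAT, 0.123, 0.135 and 0.121 in BAT, 0.255, 0.133 and 0.127 in liver and 0.0883, 0.0843 and 0.0848 in muscle. The motor Kif20a, which acts in cytokinesis, was 0.753, 2.14 and 1.98 FPKM in WAT, 0.233, 0.236 and 0.223 in BAT, 0.236, 0.291 and 0.237 in liver and 0.161, 0.244 and 0.118 in muscle. Kif23, another motor of cytokinesis, was 0.53, 1.82 and 2.01 FPKM in WAT, 0.163, 0.159 and 0.0455 in BAT, 0.0849, 0.076 and 0.085 in liver and 0.0114, 0.0217 and 0.0111 in muscle. None of these 3 motors exceeded 0.291 FPKM in any of the 9 libraries outside WAT. The kinetochore motor Cenpe was 0.282, 0.847 and 1.15 FPKM in WAT, 0.0184, 0.0914 and 0.0626 in BAT, 0.0359, 0.0268 and 0.0617 in liver and 0.00483, 0.0138 and 0.0187 in muscle. The kinetochore protein Cenpf was 0.226, 0.65 and 0.703 FPKM in WAT, 0.0104, 0.0491 and 0.0191 in BAT, 0.0233, 0.0344 and 0.0126 in liver and 0.000374, 0.0131 and 0.000975 in muscle. Both were low even in WAT and no higher than 0.0187 FPKM in muscle. The spindle assembly factor Tpx2, which activates Aurora A, was 0.564, 2.42 and 2.44 FPKM in WAT, 0.062, 0.166 and 0.111 in BAT, 0.237, 0.0721 and 0.0305 in liver and 0.985, 1.31 and 1.5 in muscle. Cenpa, the histone that marks the centromere, was 1.43, 2.86 and 4.54 FPKM in WAT, 5.63, 4.62 and 5.18 in BAT, 1.62, 1.91 and 1.93 in liver and 1.01, 0.34 and 0.88 in muscle. Both of these were also found where Mki67 was at most 0.28 FPKM, Tpx2 in muscle and Cenpa in BAT and liver. The WAT log2 difference of Cenpa was 0.95.

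For nucleotide supply, Rrm2, the regulated subunit of ribonucleotide reductase, was 0.842, 2.99 and 3.91 FPKM in WAT, 0.337, 0.463 and 0.464 in BAT, 0.85, 2.58 and 3.62 in liver and 0.149, 0.177 and 0.18 in muscle. Tk1 (chromosome 11, 117676840 to 117687406), the thymidine kinase of S phase, was 0.811, 4.29 and 4.59 FPKM in WAT, 0.124, 0.646 and 0.291 in BAT, 16.7, 14.4 and 15.4 in liver and 2.04, 1.36 and 1.44 in muscle. The ratios of HFD-veh to NCD-veh in WAT were 3.55 and 5.29, and in both genes a liver library reached or passed the level of NCD-veh WAT. Tyms, the thymidylate synthase, lay between 0.638 and 1.29 FPKM in WAT and between 0.0462 and 1.15 elsewhere.

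Replication licensing and fork genes differed least. Of 9 genes, 4 were more than 2-fold higher in HFD-veh than in NCD-veh WAT, with a median log2 difference of 0.87. Pcna, the sliding clamp of the fork, was 25.2, 38 and 35.4 FPKM in WAT, 12.1, 13.3 and 11.6 in BAT, 9.84, 15.2 and 10.9 in liver and 7.17, 8.32 and 8.53 in muscle, and the mouse genome holds processed copies of it whose reads may be counted here. Mcm7, a subunit of the replicative helicase, was 6.07, 5.96 and 6.3 FPKM in WAT, 3.89, 3.67 and 4.16 in BAT, 2.83, 3.16 and 3.19 in liver and 2.28, 1.71 and 2.14 in muscle. Mcm4, of the same ring, was 4.84, 4.92 and 4.65 FPKM in WAT, 0.953, 0.973 and 1.01 in BAT, 0.392, 1.07 and 0.74 in liver and 0.869, 0.786 and 1.2 in muscle. WAT held the 3 highest values of each, but the ratios of HFD-veh to NCD-veh were only 0.981 for Mcm7 and 1.02 for Mcm4, against 1.5 for Pcna. Mcm2 was 1.78, 4.39 and 4.34 FPKM in WAT, 0.454, 0.809 and 0.509 in BAT, 0.481, 0.927 and 0.827 in liver and 3.37, 2.91 and 2.58 in muscle. Mcm5 was 1.43, 4.27 and 4.51 FPKM in WAT, 0.34, 0.478 and 0.356 in BAT, 0.163, 0.472 and 0.596 in liver and 0.171, 0.0762 and 0.155 in muscle. The licensing factor Cdt1 was 0.771, 2.63 and 3.39 FPKM in WAT, 0.353, 0.737 and 0.461 in BAT, 0.727, 0.821 and 0.65 in liver and 0.0925, 0.123 and 0.161 in muscle. These 3 were more than 2-fold higher in HFD-veh WAT, and Mcm2 reached a similar level in muscle. The helicase subunits Mcm3 and Mcm6 lay between 3.72 and 6.5 FPKM and between 4.1 and 8.42 FPKM in WAT and no higher than 1.23 and 1.26 elsewhere, with WAT log2 differences of 0.75 and 0.87. Cdc6, which loads the helicase, lay between 0.152 and 0.491 FPKM in WAT and between 0.00822 and 0.332 elsewhere, with a WAT log2 difference of 1.23. Thus the 6 subunits of 1 ring ranged from a log2 difference of -0.03 for Mcm7 to 1.52 for Mcm5.

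With narciclasine, levels in WAT lay near those of HFD-veh rather than of NCD-veh. Between HFD-ncls and HFD-veh WAT no gene was more than 2-fold higher or lower, where 2.95% and 0.443% of all genes were. The median log2 difference of the 36 genes was 0.05, as it was over all genes (0.05), and the median ratio of FPKM was 1.03. Within 1.4-fold lay 35 genes, and the exception was Cenpa, with a log2 difference of 0.65. The quartiles of the log2 difference were -0.03 and 0.23 for the 36 genes and -0.08 and 0.24 over all genes. The closeness of the 2 HFD libraries is therefore not particular to the 36. HFD-ncls was the higher of the pair for 24 genes, where it was for 8991 of all 15131 genes tested. The lowest difference was -0.36 (Bub1). For 33 genes the HFD-ncls value was nearer to HFD-veh than to NCD-veh, and the share of all genes was not counted. All 26 genes that were over 2-fold higher in HFD-veh than in NCD-veh were so in HFD-ncls too, a comparison that shares the NCD-veh library.

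To set the WAT diet difference against a spread, a fit chosen after the data were seen took HFD-veh and HFD-ncls of an organ as 2 libraries of 1 diet, with the single NCD library assumed to vary like the others. In WAT, 10 of the 36 genes rose with HFD at an adjusted p under 0.05 (limma), against 2.19% of all genes, and none fell (0.892% of all genes). This count depends on the settings, with 30 at a pseudocount of 1 and 0 at a pseudocount of 0.01. With rescaled libraries 34 genes were tested, and 5 of the 8 calls among them stayed. With a mean of at least 0.5 FPKM 27 were tested, and all 5 calls among them stayed. The 10 were Kif11, Cdk1, Tpx2, Tk1, Rrm2, Bub1, Foxm1, Cdt1, Cenpe and Cenpf. Bub1, Cenpf and Cenpe, with means of 0.107, 0.145 and 0.218 FPKM over the 12 libraries, passed the filter of 0.1 FPKM only through HFD WAT. They were thus tested because they are high in the group called higher. Without the filter 8 of the 10 stayed, and Cdt1 and Tk1 were lost. Kif11 rose by 1.91 ± 0.22 (SE) on the log2 scale (limma, adjusted p = 0.01267) and Cdk1 by 2.27 ± 0.31 (limma, adjusted p = 0.01885). The largest value was that of Tk1, 2.32 ± 0.36 (limma, adjusted p = 0.02529). Mki67, at 1.91 ± 0.43, did not pass (limma, adjusted p = 0.06637). At an unadjusted p under 0.05, 33 genes were higher, against 13.8% of all genes, and Ccne2, Mcm4 and Mcm7 were the exceptions. The call rests on the pair of HFD libraries, since 0 genes passed without HFD-veh and 1 without HFD-ncls. In the same fit 0 genes passed in BAT (background 0.0132%), 0 in liver (background 0.476%) and 0 in muscle (background 0%), which does not show that levels there did not differ. At an unadjusted p under 0.05 stood 4 genes in BAT, 10 in liver and 2 in muscle, where 10.2%, 14% and 5.1% of all genes did, so the shares in BAT and muscle were near the background. The difference between the diet change in WAT and the mean of those in the other organs was itself tested, and 2 genes passed toward a larger change in WAT, as 0.899% of all genes did, and 0 toward a smaller one (0.37% of all genes). They were Kif11, with 2.12 ± 0.26 (limma, adjusted p = 0.01978), and Tpx2, with 1.98 ± 0.33 (limma, adjusted p = 0.04876), while 25 of the 36 genes had an unadjusted p under 0.05 toward a larger change in WAT, as 10.6% of all genes did. The 2 calls became 25 at a pseudocount of 1, 4 without the filter, 1 with rescaling and 0 at a pseudocount of 0.01 or with the stricter filter. Neither gene passed once HFD-veh or HFD-ncls WAT was left out.

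Markers of other cell types also differed in WAT. Of the 8 macrophage markers, 4 (Cd68, Itgax, Mpeg1 and Emr1) were more than 2-fold higher in HFD-veh than in NCD-veh WAT, against 6.19% of all genes. All 8 together summed to 680, 967 and 1200 FPKM, most of it Lyz2. Lyz2, the lysozyme and most abundant of the list, was 489, 551 and 747 FPKM in the 3 WAT libraries. Cd68, a lysosomal protein of macrophages, was 49.5, 198 and 222 FPKM and Itgax, an integrin of lipid-associated macrophages, was 2.79, 20.4 and 22.7. The other macrophage markers were near level, with Csf1r at 57.2, 64.8 and 65.2 FPKM, Mrc1 at 37.2, 39.8 and 36.2 and Cd14 at 15.3, 12 and 13.4. The 3 neutrophil markers summed to 6.81, 39.9 and 36 FPKM, almost all of it S100a8 (4.19, 34.7 and 35.5), while Ngp, a granule protein of neutrophils, was at most 0.0941. Of the 6 hepatocyte markers, 4 were more than 2-fold higher in HFD-veh than in NCD-veh WAT (6.19% of all genes). Between HFD-ncls and HFD-veh 5 were more than 2-fold higher (2.95% of all genes), as with Alb (albumin) at 4.79, 25.7 and 94.1 FPKM. Cyp2e1, the most abundant of the list in WAT, went the other way, with 1050, 438 and 409 FPKM. The 9 T and B lymphocyte markers summed to 14.9, 4.51 and 11.4 FPKM, lowest in HFD-veh. The 4 endothelial markers summed to 126, 195 and 194 FPKM and the 5 fibroblast and preadipocyte markers to 1370, 1040 and 1170. The latter sum follows Dcn, the most abundant (949, 461 and 529), and Pdgfra was also lower with HFD (19.1, 10.3 and 9.34). Col1a1 (92.1, 152 and 177), Col3a1 (262, 356 and 387) and Lum (43.9, 58.2 and 65.5) were higher with HFD. The part of these cells in the levels of the proliferation genes was not tested. In bulk tissue, more cells of a type and more RNA per cell cannot be told apart.

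In BAT the genes were low, and HFD-veh stood above both other libraries for many. Of the 36 genes, 5 were more than 2-fold higher in HFD-veh than in NCD-veh (background 2.8%) and 0 lower (background 2.46%), with a median log2 difference of 0.45. They were Top2a, Cdk1, Ccnb2, Bub1b and Tk1, of which the highest, Bub1b, went from 0.182 to 0.814 FPKM. Between HFD-ncls and HFD-veh 0 were higher (background 0.72%) and 4 lower (background 2.64%), with a median of -0.34 against -0.02 for all genes. These were Top2a, Ccna2, Ccnb2 and Birc5. Both comparisons share the HFD-veh library, and none of these levels reached 1 FPKM. Top2a came to about 4.74, 41.2 and 2.85 fragments, and with 1 FPKM added in place of 0.1 no gene was over 2-fold in either comparison. The summed level of the macrophage markers was also highest in HFD-veh (45.6, 61.7 and 40.2 FPKM), most of it Lyz2 (30.8, 40.2 and 27.5). Cd68 was 3.62, 9.15 and 2.6 FPKM. Mpeg1 (1.58, 3.67 and 1.69), Emr1 (0.715, 1.16 and 0.663) and Itgax (0.115, 0.259 and 0.202) were also highest in HFD-veh. The rest of the list was highest in NCD-veh, with Csf1r at 3.32, 3.3 and 2.6, Mrc1 at 1.34, 1.3 and 1.01 and Cd14 at 4.15, 2.66 and 3.91. The muscle fibre markers summed to 1510, 640 and 88.9 FPKM in the same libraries. Their part in the result was not tested.

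In liver a few S phase genes were higher with HFD. Of the 36, 5 were more than 2-fold higher in HFD-veh than in NCD-veh (background 3.23%) and 1 lower (background 2.89%), with a median log2 difference of 0.08. The higher ones were the E cyclins Ccne1 and Ccne2 and the S phase genes Rrm2, Mcm4 and Mcm5, and 8 of the 9 licensing and fork genes were higher at all. The lower one was Ube2c. Of the genes with mitotic roles, 5 of the 6 kinases and checkpoint genes were higher at all (median log2 difference 0.03), 3 of the 7 centromere and spindle genes (median -0.07) and neither of Mki67 and Top2a. Of the 38 other mitotic genes 25 were higher (median 0.18), and of the 34 other replication genes 28 were (median 0.44), 3 of them more than 2-fold. Over all genes tested, 7772 of 15131 were higher at all. Among the 5 genes more than 2-fold higher, Rrm2 showed the highest levels, from 0.85 FPKM with NCD-veh to 2.58 with HFD-veh and 3.62 with HFD-ncls. In the fit by diet its difference was 1.73 ± 0.30 and did not pass (limma, adjusted p = 0.06946). Between HFD-ncls and HFD-veh, Ube2c alone was more than 2-fold higher (background 1.84%) and Ccnb1 alone lower (background 2%). The Ube2c value of HFD-veh liver came from about 5.82 fragments and the Ccnb1 value of HFD-ncls liver from about 1.09, so each of these differences rests on a few fragments, and with 1 FPKM added no gene was over 2-fold in either comparison. The muscle fibre markers, which summed to 2.1, 47.6 and 3.11 FPKM in liver, were highest in HFD-veh, and their part in the result was not tested.

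In muscle few differences were seen, but low levels limit what could be seen. The medians of 0.0861, 0.123 and 0.142 FPKM lie near the 0.1 FPKM added, which shrinks ratios. In each muscle library 17 to 21 genes had fewer than 10 fragments. With 0.01 FPKM added more genes were over 2-fold, so the small counts here do not show that levels did not differ. Between HFD-veh and NCD-veh 0 of the 36 genes were more than 2-fold higher (background 4.32%) and Cenpa was lower (background 1.46%), and the median log2 difference was 0.14. Between HFD-ncls and HFD-veh, Cenpa and Ccnb2 were more than 2-fold higher (background 2.02%) and 0 were lower (background 3.66%), with a median of 0.01. Cenpa was 1.01, 0.34 and 0.88 FPKM, so HFD-veh was the low library in both comparisons, which share it. Ccnb2 was listed at 0 in HFD-veh muscle and at 0.133 with narciclasine. HFD-veh muscle is the library with liver RNA (Apoa1, a liver apolipoprotein, was 0.235, 54.4 and 0.137 FPKM). Its part in these 2 genes was not tested.

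**Figure D3:**
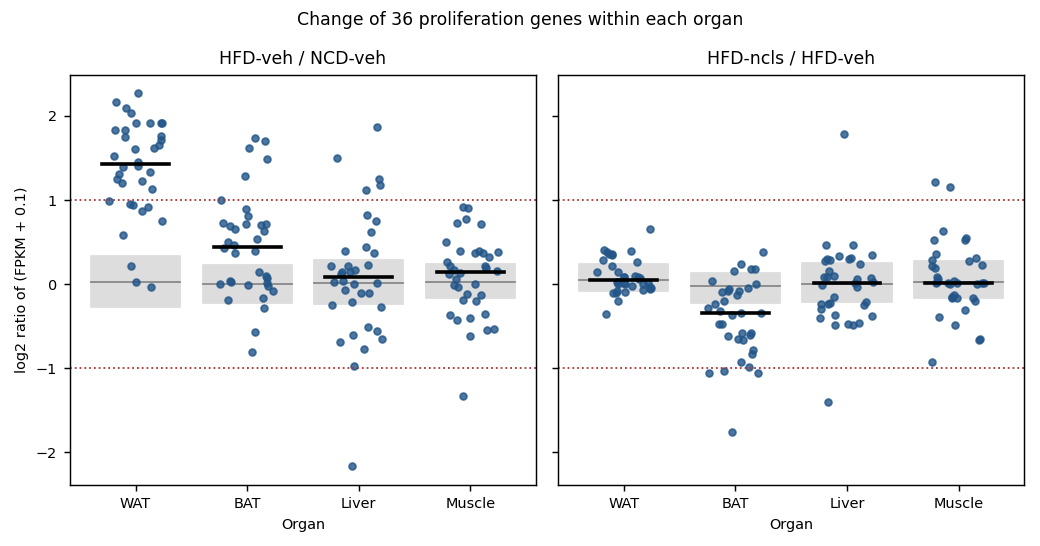
Log2 ratio of (FPKM + 0.1) of each of the 36 genes within each organ, for HFD-veh over NCD-veh (left) and HFD-ncls over HFD-veh (right). Points are genes, black bars their median, grey boxes and lines the quartiles and median of all 15131 genes tested, and dotted lines 2-fold. On the left only the WAT points lie mostly above the upper dotted line (median 1.43), and on the right the WAT points lie around 0 (median 0.05) and the BAT points below it (median -0.34).

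A change shared by the 4 organs was tested in an additive fit of organ and condition over all 12 libraries. For HFD-veh against NCD-veh, 0 of the 36 genes passed (limma, background 0%), 9 were higher at an unadjusted p under 0.05 (7.25% of all genes in either direction), and the median log2 difference was 0.52. The smallest unadjusted p was that of Pcna, whose difference of 0.39 ± 0.12 had an adjusted p of 0.6142 in limma and the same sign in each organ. For HFD-ncls against HFD-veh, 0 passed (limma, background 0%), 0 had an unadjusted p under 0.05 (2.63% of all genes), and the median was -0.09.

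The same fit tested the organs, with their 3 libraries differing in condition. WAT was higher than BAT in 34 of the 36 genes (limma, background 64.7%) and lower in 0 (background 12.1%). Against liver, WAT was higher in 32 (background 65.7%) and lower in 1 (background 15.5%), and against muscle higher in 31 (background 67.7%) and lower in 1 (background 14%). The median log2 differences were 2.25, 2.29 and 3.07, where those of all genes were 0.94, 1.01 and 1.19, and most genes had higher FPKM in WAT. Bub1, Cenpe and Cenpf entered this fit only because HFD WAT lifted their means to the 0.1 FPKM required. The libraries were also rescaled by their median ratios (factors 1.69 to 1.76 in WAT and 0.723 to 0.916 elsewhere). Then 34 genes passed the same filter on the rescaled values. WAT was higher in 28, 24 and 28 and lower in 1, 2 and 3 of them, with medians of 1.44, 1.47 and 2.11. The largest difference was that of Mki67, by 4.21 ± 0.43 on the log2 scale against BAT (limma, adjusted p = 1.595e-05), 4.31 ± 0.43 against liver (limma, adjusted p = 9.075e-06) and 5.06 ± 0.43 against muscle (limma, adjusted p = 2.677e-06). Its mean was 5.11 ± 2.92 FPKM in WAT and 0.154 ± 0.109, 0.126 ± 0.0397 and 0.0342 ± 0.0245 in BAT, liver and muscle (SD, n = 3). Rescaling turned the direction of Mcm7 between WAT and BAT or liver, and that of Aurka between WAT and liver.

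Between the other organs no such separation was seen. BAT was higher than liver in 4 genes (background 37.4%) and lower in 4 (background 27.3%), with a median of 0.09. BAT was higher than muscle in 14 (background 41.8%) and lower in 5 (background 24.2%), with a median of 0.73, and liver was higher than muscle in 13 (background 38.1%) and lower in 4 (background 33.6%), with a median of 0.64.

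A few genes had their highest level outside WAT. Tk1 averaged 15.5 ± 1.12 FPKM in liver and 3.23 ± 2.1 in WAT (SD, n = 3), and the WAT minus liver difference was -2.55 ± 0.54 on the log2 scale (limma, adjusted p = 0.001525). Rrm2 and Tyms, which act in the same supply of nucleotides, were also higher in liver than in BAT, where the BAT minus liver differences were -2.03 ± 0.38 (limma, adjusted p = 0.001121) and -1.35 ± 0.25 (limma, adjusted p = 0.0009881). Aurka averaged 4.06 ± 1.27 FPKM in muscle and 1.74 ± 0.615 in WAT, and the WAT minus muscle difference was -1.20 ± 0.24 (limma, adjusted p = 0.001062). In muscle 4 genes, Aurka, its activator Tpx2, Ccne2 and Mcm2, stood above both BAT and liver, while Mki67 and Top2a stayed under 0.1 FPKM there. The BAT minus muscle differences of the other 3 were -2.69 ± 0.51 (limma, adjusted p = 0.001193), -1.92 ± 0.26 (limma, adjusted p = 0.000134) and -2.17 ± 0.29 (limma, adjusted p = 0.0001145) for Tpx2, Ccne2 and Mcm2. Against WAT these 3 did not pass in muscle. Cenpa averaged 5.14 ± 0.505 FPKM in BAT and 2.94 ± 1.56 in WAT, and the WAT minus BAT difference of -0.92 ± 0.39 (limma, adjusted p = 0.05281) did not pass, whereas BAT exceeded liver by 1.45 ± 0.39 (limma, adjusted p = 0.008466).

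**Figure D4:**
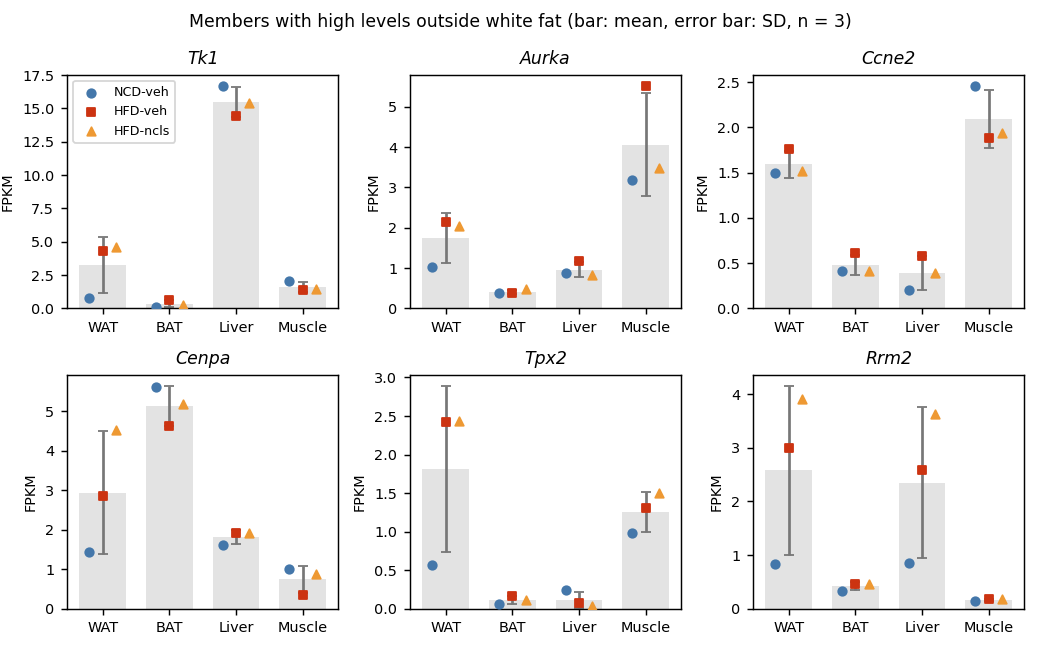
FPKM of 6 genes with a high level in an organ other than WAT, with 1 point per library, bars for the mean of the organ's 3 libraries and error bars for their SD (n = 3, the libraries differing in condition). Tk1 is highest in liver, Aurka and Ccne2 in muscle and Cenpa in BAT, while Tpx2 in muscle and Rrm2 in liver overlap their WAT levels.

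Lists of related genes, chosen from the same pathways, were read beside the 36. Of 38 other mitotic genes, 26 were more than 2-fold higher in HFD-veh than in NCD-veh WAT, against 6.19% of all genes, with a median log2 difference of 1.33. In the fit by diet 12 of the 37 tested rose, against 2.19% of all genes, and none fell (limma). Spc25, a kinetochore subunit, went from 0.576 to 5.59 and 5.19 FPKM in the 3 WAT libraries. The kinase Melk went from 0.194 to 1.11 and 0.986 FPKM and Cdca8, the borealin of the passenger complex, from 0.831 to 3.45 and 3.41. The most abundant of this list, Pttg1 (securin) and Smc4 (a condensin), did not share this, with 32.4, 25.1 and 29.7 FPKM and 8.83, 10.1 and 10.8. Of the 34 other replication genes, 6 were over 2-fold higher in HFD-veh WAT, with a median of 0.45, and 2 rose in the fit by diet (limma), against 2.19% of all genes. Uhrf1, which maintains DNA methylation, was 0.582, 2.18 and 3.02 FPKM. Gmnn, the inhibitor of licensing, was 0.736, 2.04 and 3.39 FPKM, and Dbf4, the partner of the Cdc7 kinase, was 1.02, 2.61 and 2.7. The most abundant, Rpa1 and Gins4, were 13.7, 13.8 and 13.1 and 19.2, 21.3 and 19.5.

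The lists of upstream regulators were small. Over all genes tested, 6.19% were more than 2-fold higher in HFD-veh than in NCD-veh WAT, and 2.19% rose in the fit by diet. The share over 2-fold in the RB and E2F list, given next, was near that of all genes. Among 16 RB and E2F family genes 1 was more than 2-fold higher in HFD-veh WAT, with a median of 0.22, and E2f8, a late repressor of the family, was the 1 that passed the fit by diet, by 1.74 ± 0.30 (limma, adjusted p = 0.0336). E2f6 and E2f4, with the highest means over the 12 libraries, were 9.73, 11.7 and 10 FPKM and 14.2, 15.4 and 15 in WAT, where Rb1 was higher (28.5, 26.8 and 23.6). Among 6 G1 cyclins and kinases, Ccnd1 was more than 2-fold higher in HFD-veh WAT, at 8.28, 16.8 and 17.7 FPKM, none passed the fit (limma, 2 with an unadjusted p under 0.05), and Ccnd2 and Ccnd3 were 63.7, 110 and 97.7 and 42.7, 48.2 and 52. The CDK inhibitors, which hold the cycle, were split in the same WAT libraries. Of the 6 with values, 3 were more than 2-fold higher in HFD-veh than in NCD-veh WAT. The others, Cdkn1b (13, 7.24 and 9.29 FPKM), Cdkn1c (9.62, 6.41 and 9.02) and Cdkn2c, were lower by less than 2-fold. Cdkn1a, the p21 inhibitor, was 9.73, 77.2 and 67.4 FPKM in WAT and rose by 2.88 ± 0.31 in the fit by diet (limma, adjusted p = 0.0101). Cdkn2b (p15) was 4.86, 11.3 and 12.2 FPKM, Cdkn2a, the locus of p16, was 0.181, 0.87 and 1.11 and rose by 1.94 ± 0.27 (limma, adjusted p = 0.01975), and Cdkn2c, the most abundant beside Cdkn1a, was 78.5, 60.8 and 60.8. In liver Cdkn1a went the other way, with 10.4, 1.46 and 2.45 FPKM, and fell by 2.40 ± 0.31 with HFD (limma, adjusted p = 0.03407). None of the 5 lists had a gene more than 2-fold higher or lower between HFD-ncls and HFD-veh WAT. Over all genes tested, 2.95% were that much higher and 0.443% that much lower, which are small shares for lists of this size.

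**Figure D5:**
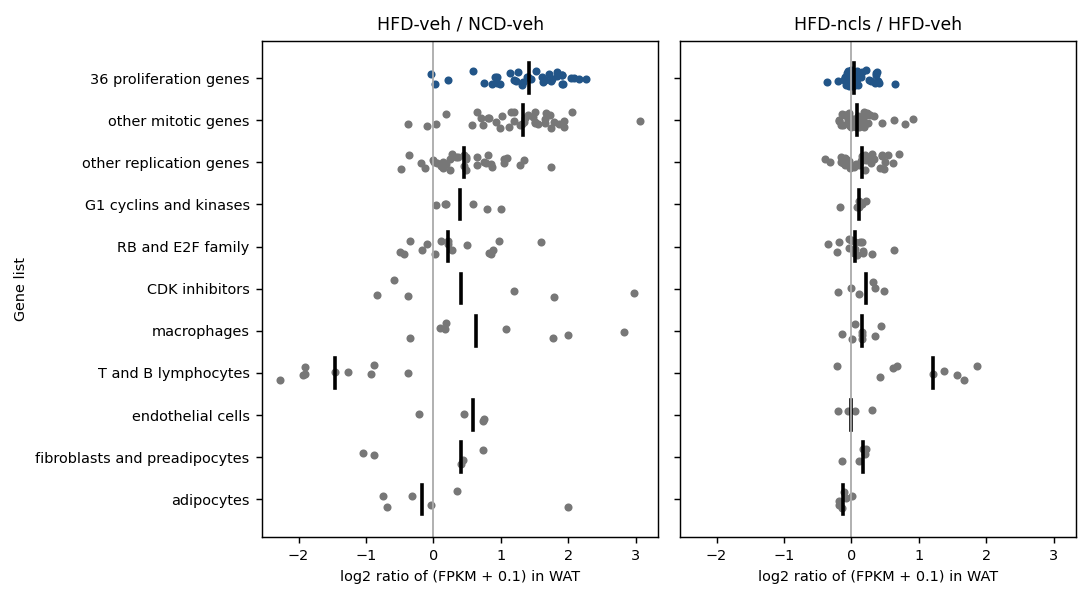
Log2 ratio of (FPKM + 0.1) in WAT for the genes of the 36 and of 10 other lists, for HFD-veh over NCD-veh (left) and HFD-ncls over HFD-veh (right), with 1 point per gene and a bar at each list's median. The 36 genes and the other mitotic genes lie mostly above 0 in the left panel (medians 1.43 and 1.33), and in the right panel the medians of the lists plotted lie near 0 except that of the lymphocyte markers (1.21).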

How the data were processed

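FPKM values per gene symbol were deposited by the authors, who aligned reads to mm9 with TopHat and quantified RefSeq genes with Cufflinks. No scaling between libraries is stated, and FPKM depend on what else a library holds, so a rescaling by median ratios was also run. The table holds 22276 symbols, of which 86 lack a value in at least 1 library. Python 3.11.15 and limma 3.58.1 in R 4.3.3 were used.

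Values were taken as log2(FPKM + 0.1) for the 15131 genes with a mean of at least 0.1 FPKM over the 12 libraries, and a fold change on this scale understates that of low genes. Organs, and conditions across organs, were tested with an additive limma fit of organ and condition (trended variance, two-sided, Benjamini-Hochberg adjustment over all genes tested, called under 0.05). Separate mice behind the libraries are not stated, organs may come from the same mice, and p-values measure only the spread between these libraries. Within an organ, with 1 library per group, genes over 2-fold were counted without a test. A fit of organ by diet, which takes both HFD libraries of an organ as 1 diet, was chosen after seeing the data. All fits were tested on simulated data.

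Depth was estimated from FPKM worth 1 fragment in genes with a single transcript (GENCODE vM1, mm9). Promoter windows are those of RefSeq (GRCm38.p6), and no coordinates were converted. Values in all 12 libraries are given for the 2 most abundant genes of each role and every gene over 2-fold within an organ at 0.5 FPKM or more. From the other pathway lists, the 2 most abundant genes and up to 3 over 2-fold at 1 FPKM or more were named per comparison, and E2f8, Cdkn2a, Rb1, the cell type markers named and the liver genes of the closing section were chosen after their values were seen. The 36 genes and all lists were chosen with earlier results of these data known. Alternatives were a pseudocount of 1 or 0.01, no filter, a mean of at least 0.5 FPKM, rescaling, no condition term and 1.4-fold. In addition, each library was left out of the tests between organs, each organ of those across organs, and each HFD library of the fit by diet.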

Additional observations from a re-analysis of the deposited data

Results flagged for a closer look

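The diet change in WAT and the mean diet change of the other organs differed for 2 genes when the difference itself was tested. For the spindle motor Kif11 the difference was 2.12 ± 0.26 on the log2 scale (limma, adjusted p = 0.01978), and for the spindle factor Tpx2 it was 1.98 ± 0.33 (limma, adjusted p = 0.04876). Both were lower with HFD in liver, where neither passed (limma, unadjusted p under 0.05 for both). Leaving out HFD-veh or HFD-ncls of WAT ended both calls.

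Ube2c, the E2 enzyme of the anaphase-promoting complex, had a log2 difference of HFD-veh and NCD-veh of 1.83 in WAT and of -2.16 in liver. The difference between these organs was not tested, and the HFD-veh liver value rests on about 5.82 fragments.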

How the results depend on the processing

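Of the alternatives tried, 137 counts of genes stayed within 1.5 times the value reported and 36 did not. The 137 include counts of 0 that stayed at 0. They also include counts within an organ without the filter, which could not move because all 36 genes passed it. The 137 therefore do not measure how stable the other counts are. Rescaling turned the difference of Mcm7 to -0.28 for WAT against BAT and to -0.04 against liver, and that of Aurka to -0.21 against liver, and none of these 3 passed. Counts over 2-fold in WAT for HFD-veh against NCD-veh were 13 with a pseudocount of 1 and 17 with a mean of at least 0.5 FPKM, and HFD-ncls against HFD-veh gave 1 at 1.4-fold. A pseudocount of 1 gave 0 genes in all comparisons of BAT, liver and muscle. A pseudocount of 0.01 gave 12 and 10 in BAT (diet and narciclasine), 4 in liver (narciclasine) and 11 and 7 in muscle. At 1.4-fold the counts were 19 and 14 in BAT, 16 in liver (diet) and 10 and 9 in muscle. A mean of at least 0.5 FPKM gave 1 in liver (narciclasine) and rescaling gave 3 in muscle (diet). In the fit by diet, the calls in WAT were 30 with a pseudocount of 1, 0 with 0.01, 5 of 27 genes tested with the stricter filter and 5 of 34 with rescaling. The median log2 difference in WAT was 1.64 without HFD-veh and 1.43 without HFD-ncls. Liver gave 1 call with a pseudocount of 1. The test of WAT against the other organs gave 25 with a pseudocount of 1, 0 with 0.01, 4 without a filter, 0 with the stricter filter and 1 with rescaling. Its median log2 difference over the 36 genes was 1.37 without HFD-veh WAT and 1.17 without HFD-ncls WAT. The single NCD library of WAT could not be left out. The causes were not tested. Between organs, a pseudocount of 1 left 11 calls for BAT against muscle, and leaving out 1 library gave 34 to 35 calls for WAT against BAT, 31 to 34 against liver and 32 to 33 against muscle. No call across organs was made under any alternative. Without the condition term, which sets organs side by side within a condition, BAT against muscle gave 17 calls in place of 19. No paired analysis by replicate was possible because no replicate numbers are in the labels.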

Other observations

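Most replication and mitotic genes outside the 36 were lower in liver than in WAT, 26 of 34 and 32 of 37 by the fit of organ and condition (limma). Over all genes tested 65.7% were lower in liver, so the share of the replication genes was not far above that background. In each list 2 genes were higher in liver, where 15.5% of all genes were. Single genes stood out in liver. Mcm10, which activates the replicative helicase, was 8.84, 17.2 and 25.8 FPKM in liver of the groups NCD-veh, HFD-veh and HFD-ncls in turn, and no library of another organ exceeded 0.918. Spc24, a kinetochore subunit, was 3.56, 9.37 and 9.56 FPKM in liver and no higher than 1.18 in another organ. The licensing inhibitor Gmnn was 1.67, 3.85 and 3.01 in liver, and its highest values were those of BAT, 8.07, 6.98 and 8.16. These genes were singled out after their values were seen, and Mki67 stayed between 0.0892 and 0.168 FPKM in the same liver libraries.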
